A study of Mus musculus with 6 samples.

Results

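The 9 genes described here encode components and regulators of complement: C1ra, C2, C4b, C3, Cfb, Cfd, Cfi, Serping1 and Cd55. They were taken by name from a deposited table of 55487 genes, and all 9 were found. Complement is a cascade of plasma and tissue proteins that tags and damages microbes. The classical route starts when C1q binds antibody or another target and its proteases cut C4 and C2, the alternative route amplifies through factors B and D, and both meet at the cleavage of C3. Inhibitors and membrane proteins hold the cascade in check on host cells. The liver makes most plasma complement, and gut epithelium, stromal cells and macrophages also transcribe parts of it.

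The libraries came from terminal ileum of C57BL/6 mice at postnatal day 9, with 3 libraries labelled NEC (necrotizing enterocolitis) and 3 labelled control. NEC was induced by gavage of hyperosmolar formula made from 15 g Similac and 75 mL Esbilac, by 10 min exposures to 5% O2 given 3 times daily for 4 days, and by lipopolysaccharide (4 mg/kg/day) fed on postnatal days 6 and 7. Control samples carry this induction text as well, which leaves the feeding and handling of the control pups unstated. Whether libraries within a group are from different pups is not labelled either, and the p-values thus rest on a spread among libraries that may be technical.

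Values are FPKM, in which fragment counts are divided by transcript length and library depth, and that depth was estimated at 15.2 to 18.7 M fragments per library. The epithelial transcription factor Cdx2 stood at 51.2 to 65.4 FPKM in NEC libraries and 66.1 to 69.2 FPKM in control libraries, while the ileal bile acid binding protein gene Fabp6 reached at most 10.4 FPKM in NEC libraries and 2.45 FPKM in control libraries. NEC 1 stood apart: it correlated across genes with the other NEC libraries at 0.932 and 0.942, against 0.972 between NEC 2 and NEC 3. The 7SL RNA gene Rn7s1 took 42.7% of all FPKM in NEC 1 and 27.3% to 32.2% in the other libraries, and the TMM factor of NEC 1 was 0.561 against at least 0.959 in the others. Smooth muscle markers summed to 141, 678 and 671 FPKM in NEC 1, 2 and 3, against 855, 912 and 767 FPKM in control 1, 2 and 3. Between 13461 and 14882 genes reached 1 FPKM in NEC libraries, and 16290 to 16702 did in control libraries; the part of these differences in the lower calls was not tested. Control 1 stood apart in neutrophil markers, whose summed level was 56.5, 60.0 and 53.2 FPKM in NEC 1, 2 and 3, against 4.11, 58.1 and 57.4 FPKM in control 1, 2 and 3. On the log2(FPKM + 1) scale the median of the 15806 tested genes was lower by 0.26 in NEC libraries, so changes of the 8 tested members, and of the other complement genes called, are also given relative to that median. All changes below are NEC minus control on that scale, which understates the change of genes of low level, and a call is an adjusted p under 0.05 by limma with Benjamini-Hochberg adjustment over all tested genes.

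Of the 9 genes, 8 had the mean of at least 1 FPKM needed for a test and Cfd did not. Cfi, the protease that degrades activated C3b and C4b, and C4b, the gene of complement C4, rose in NEC ileum. C2, the protease subunit of the classical C3 convertase, and C1ra, the C1r protease of the C1 complex, fell. C3, Cfb, Serping1 and Cd55 did not pass the test. Thus 2 of 8 (25.0%) were called higher, where 7.69% of all tested genes were, and 2 of 8 (25.0%) were called lower, where 30.6% of all tested genes were. The median change of the 8 genes was -0.42.

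With TMM scaling, which sets the bulk of genes to no change, C4b and Cfi were again called higher and 0 of the 8 were called lower by limma, also 0 at an unadjusted p under 0.05. Over all tested genes, TMM scaling gave 16.7% called higher and 14.2% called lower. With quantile normalization C4b and Cfi were called higher and C2 was called lower, beside 13.9% and 15.1% of all tested genes.

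**Figure D1:**
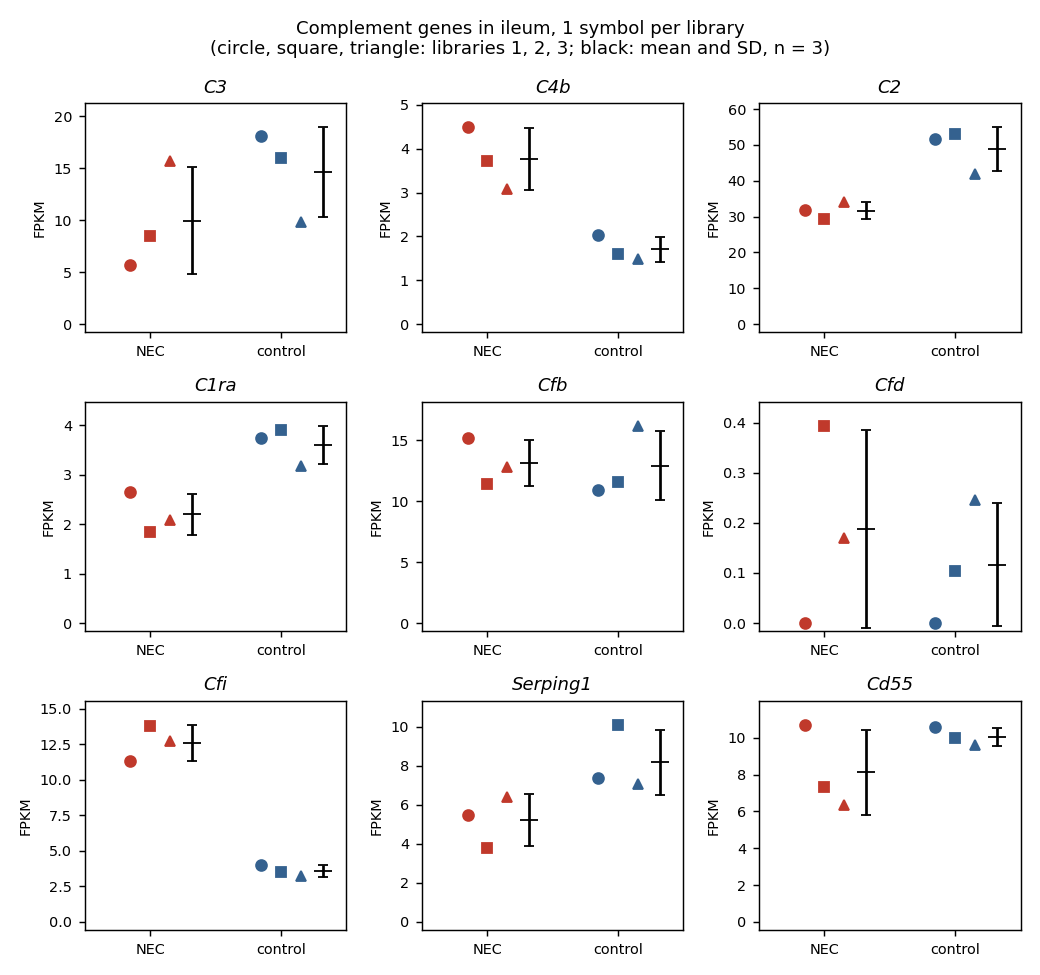
Level of each of the 9 genes in FPKM (y axes, linear and different between panels) in NEC 1 to 3, left, and control 1 to 3, right; points are libraries and bars are means with SD. All NEC points of Cfi (11.3 to 13.8) and C4b (3.09 to 4.49) lie above all control points (3.22 to 4.02 and 1.49 to 2.03).

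C1ra encodes C1r, the protease that C1q activates and that in turn activates C1s. It stood at 2.66, 1.85 and 2.09 FPKM in NEC 1, 2 and 3, against 3.74, 3.90 and 3.17 FPKM in control 1, 2 and 3. All NEC libraries were below all control libraries. C1ra averaged 2.20 ± 0.416 FPKM in NEC and 3.60 ± 0.385 FPKM in control libraries (SD, n = 3 each). The change was -0.53 (SE 0.13, limma adjusted p = 0.0246), or -0.27 relative to the median of all genes. By rank within a library the groups overlapped, at the 26.9 to 44.0 percentile of tested genes in NEC and the 35.9 to 42.9 percentile in control libraries. As a gene of a single annotated transcript its values could be turned back into fragments, which came to 134, 100 and 116 in NEC 1, 2 and 3, and 174, 177 and 153 in control 1, 2 and 3, each within 0.05 of a whole number. Its depth was therefore modest. Whether depth had a part in the lost calls below was not tested. The call was lost with TMM scaling (limma adjusted p = 0.235) and with quantile normalization (adjusted p = 0.348). It was also lost on leaving out NEC 2 or any 1 control library (limma adjusted p from 0.0515 to 0.0939). With the replicate number as a block in the model, the call was lost too (limma adjusted p = 0.0529).

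C1ra has a near copy, C1rb, on the same chromosome, and 48.0% of the 50-base stretches of the C1ra transcript also occur in that of C1rb, with a longest shared run of 757 bases. C1rb has 1 annotated transcript as well, and its values came to 46, 44 and 49 fragments in NEC 1, 2 and 3. In control 1, 2 and 3 they came to 104, 87 and 37, again each within 0.05 of a whole number. No fraction of a fragment was thus visible in either gene. To which gene the authors' counting gave a shared fragment is not stated in the sources used here. The split between these genes is therefore uncertain. Summed, C1ra and C1rb changed by -0.62 (limma adjusted p = 0.0342, a sum added after seeing the data).

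The C1ra gene lies at chr6:124512405-124523443 on the plus strand of GRCm38 (mm10), and the window around its RefSeq start is shown because it held a match to the letters of C/EBP factors, which act in inflammation. RefSeq promoters, 250 bases before a start and 50 from it on, were at hand for 4 of the 9 genes: C3, Cfd, C1ra and Cd55. The others were C2, C4b, Cfb, Cfi and Serping1. Capitals mark a C/EBP motif, TTGCNNAA, on the minus strand. The window below is chr6:124512371-124512670, plus strand, GRCm38.p6.
C1ra promoter: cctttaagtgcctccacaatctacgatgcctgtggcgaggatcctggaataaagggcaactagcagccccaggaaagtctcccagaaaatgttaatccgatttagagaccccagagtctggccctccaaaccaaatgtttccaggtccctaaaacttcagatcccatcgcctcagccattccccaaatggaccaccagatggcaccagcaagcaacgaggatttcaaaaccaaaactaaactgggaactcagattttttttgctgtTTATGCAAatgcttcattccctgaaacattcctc
This RefSeq start lies inside the gene as annotated by GENCODE, downstream of its first base. The match lies after the RefSeq start, at bases 17 to 24 counted from its first base. Counted on both strands, 10.8% of 32851 mouse promoters of the same length hold these letters.

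C2 is the serine protease that joins C4b to make the classical C3 convertase, and it was the member of highest level in every library. Its values were 31.8, 29.3 and 33.9 FPKM in NEC 1, 2 and 3, against 51.6, 53.1 and 41.8 FPKM in control 1, 2 and 3. No NEC library reached the lowest control library. C2 averaged 31.7 ± 2.33 FPKM in NEC and 48.8 ± 6.15 FPKM in control libraries (SD, n = 3 each), a change of -0.60 (SE 0.12, limma adjusted p = 0.0143), or -0.34 relative to the median of all genes. Its rank within a library, which no scaling between libraries alters, was at the 93.6, 92.5 and 93.7 percentile of tested genes in NEC 1, 2 and 3 and at the 96.2, 96.3 and 95.0 percentile in control 1, 2 and 3. The call was lost with TMM scaling (change -0.27, limma adjusted p = 0.157), without control 1 (adjusted p = 0.0625) and without control 2 (adjusted p = 0.0634).

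C4b encodes complement C4, whose cleavage product binds covalently to surfaces and anchors the convertase. C4b stood at 4.49, 3.72 and 3.09 FPKM in NEC 1, 2 and 3, against 2.03, 1.60 and 1.49 FPKM in control 1, 2 and 3. Every NEC library lay above every control library, and NEC 1 was the highest of the 6. Its mean was 3.77 ± 0.704 FPKM in NEC and 1.71 ± 0.288 FPKM in control libraries (SD, n = 3 each), a ratio of means of 2.21. The change was 0.81 (SE 0.15, limma adjusted p = 0.0112), or 1.07 relative to the median of all genes. Within libraries C4b was at the 42.3 to 59.4 percentile of tested genes in NEC and at the 9.62 to 18.7 percentile in control libraries. Of the alternatives that tested it, only leaving out control 2 ended the call (0.79, limma adjusted p = 0.0531).

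Mouse C4b has a close relative, C4a, the sex-limited protein gene, in the same region of chromosome 17, and 35.2% of the 50-base stretches of the C4b transcript occur in that of C4a. The stretches below are from the coding sequence of C4b and the matching part of the longest C4a transcript. They were picked for the most differences between identical ends, so they do not measure how alike the transcripts are. Capitals mark the bases that differ. They lie at chr17:34740058-34740117 for C4b and chr17:34819581-34819640 for C4a, both on the minus strand of GRCm38.
C4b: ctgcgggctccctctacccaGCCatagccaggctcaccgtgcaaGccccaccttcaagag
C4a: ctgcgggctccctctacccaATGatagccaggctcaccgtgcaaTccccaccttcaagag
Counted from 1 at the 5′ end, the differences from C4b to C4a are G21A, C22T, C23G and G45T. C4a was listed at 0.442, 0.281 and 0.327 FPKM in NEC 1, 2 and 3, against 0.207, 0.180 and 0.192 FPKM in control 1, 2 and 3, which was too low to be tested. The ratio of C4b to C4a was 10.2, 13.2 and 9.44 in NEC 1, 2 and 3 and 9.81, 8.87 and 7.75 in control 1, 2 and 3, and these ranges overlapped. The sum of both genes changed by 0.81 (limma adjusted p = 0.0109, added after seeing the data).

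C3 is the component on which all routes converge. Its values were 5.69, 8.49 and 15.6 FPKM in NEC 1, 2 and 3, against 18.1, 16.0 and 9.78 FPKM in control 1, 2 and 3. The groups overlapped: NEC 1 was the lowest library of the 6, while NEC 3 was above control 3. C3 averaged 9.94 ± 5.13 FPKM in NEC and 14.6 ± 4.32 FPKM in control libraries (SD, n = 3 each). The change of -0.58 had an SE of 0.36 and did not pass the test (limma adjusted p = 0.239), and that SE was the largest of the 8 tested genes. Relative to the median of all genes it was -0.32. The change was -0.93 without NEC 3 (limma adjusted p = 0.0479), -0.27 without NEC 1 (adjusted p = 0.534) and -0.26 with TMM scaling (adjusted p = 0.559).

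The C3 gene is at chr17:57203970-57228136 on the minus strand of GRCm38. The proximal promoter of C3 is shown because C/EBP and NF-kB factors are known to drive its acute phase induction in liver, studied mainly for the human gene. Capitals mark matches to the letters of a C/EBP motif, TTGCNNAA, and of a TATA box, TATAAA, in chr17:57228087-57228386, minus strand, GRCm38.p6.
C3 promoter: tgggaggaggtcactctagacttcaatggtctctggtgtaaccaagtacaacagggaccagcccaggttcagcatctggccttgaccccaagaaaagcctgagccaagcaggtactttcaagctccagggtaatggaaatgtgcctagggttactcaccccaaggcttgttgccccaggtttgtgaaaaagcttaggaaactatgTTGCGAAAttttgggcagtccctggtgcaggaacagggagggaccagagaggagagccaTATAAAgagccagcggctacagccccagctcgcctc
The C/EBP letters lie 45 to 38 bases before the start and the TATAAA letters, held by 13.6% of all promoters, 15 to 20 bases after it. The letters searched for NF-kB (GGG and TTCC with 3 bases of any kind between them, in 5.56% of all promoters) and for interferon regulatory factors (GAAA repeated with 2 bases of any kind between, in 3.44%) were in none of the 4 windows, and the Cfd and Cd55 windows held none of the 4 motifs.

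Cfb and Cfd belong to the alternative route: factor B supplies the protease subunit of its C3 convertase, and factor D is the protease that cuts factor B. Cfb stood at 15.2, 11.4 and 12.8 FPKM in NEC 1, 2 and 3, against 10.9, 11.6 and 16.2 FPKM in control 1, 2 and 3. The groups overlapped, and the highest library was control 3. Cfb averaged 13.1 ± 1.92 FPKM in NEC and 12.9 ± 2.84 FPKM in control libraries (SD, n = 3 each). The change was 0.035 (SE 0.17, limma adjusted p = 0.884), or 0.29 relative to the median of all genes, and its sign depended on the setting.

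Cfd is best known as an adipocyte product and lay at the detection limit. It was listed at 0, 0.394 and 0.170 FPKM in NEC 1, 2 and 3, against 0, 0.104 and 0.245 FPKM in control 1, 2 and 3. The highest value, in NEC 2, stands for 6.23 to 6.59 fragments, depending on which of its 2 transcript lengths is used. A library with 0 fragments allows a level of up to 0.192 FPKM in NEC 1 and 0.208 FPKM in control 1, taking 3 fragments as the limit for counting error alone. A difference was not detectable at this depth, and no fold is given. The defining adipocyte genes Adipoq, Plin1 and Lep were at or below 0.138 FPKM in all libraries. The adipocyte list as a whole gave 1 of 3 tested genes higher, with sums of 40.7 to 53.0 FPKM in NEC and 15.9 to 16.5 FPKM in control libraries, mostly from the lipid droplet gene Cidec.

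C2 and Cfb are neighbours on chromosome 17, at chr17:34862604-34898265 and chr17:34856374-34862518, and the annotation holds a predicted gene, Gm20547, that overlaps both. Of the 50-base stretches of the transcripts, 58.0% of those of C2 and 81.4% of those of Cfb also occur in Gm20547, so part of their fragments could have been assigned to it. Gm20547 stood at 21.9, 15.5 and 18.8 FPKM in NEC 1, 2 and 3, against 29.3, 28.7 and 21.1 FPKM in control 1, 2 and 3. Summed with it, C2 had a change of -0.56 (limma adjusted p = 0.0228) and Cfb one of -0.31 that did not pass (limma adjusted p = 0.101), sums added after seeing the data. The direct ratio of Cfb to C2 was 0.477, 0.390 and 0.376 in NEC 1, 2 and 3, against 0.212, 0.218 and 0.387 in control 1, 2 and 3. Control 3 alone among the control libraries reached the NEC range.

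Cfi, factor I, is the soluble protease that inactivates C3b and C4b with the help of cofactors. Its values were 11.3, 13.8 and 12.7 FPKM in NEC 1, 2 and 3, against 4.02, 3.49 and 3.22 FPKM in control 1, 2 and 3. The lowest NEC library was far above the highest control library. Cfi averaged 12.6 ± 1.26 FPKM in NEC and 3.58 ± 0.408 FPKM in control libraries (SD, n = 3 each), a ratio of means of 3.53. The change was 1.57 (SE 0.12, limma adjusted p = 0.00126), or 1.83 relative to the median of all genes, the largest among the 8 tested members. Its rank within a library was at the 81.3 to 83.3 percentile in NEC and at the 36.7 to 44.5 percentile in control libraries. The call held in all 16 alternatives run, with changes of 1.51 to 1.87. The gene lies at chr3:129835884-129875332 on the plus strand of GRCm38.

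Serping1 encodes the C1 inhibitor, which blocks C1r and C1s as well as the contact system proteases. It stood at 5.47, 3.79 and 6.40 FPKM in NEC 1, 2 and 3, against 7.37, 10.1 and 7.06 FPKM in control 1, 2 and 3. All NEC libraries were below all control libraries, with a gap of under 1 FPKM between NEC 3 and control 3. Serping1 averaged 5.22 ± 1.32 FPKM in NEC and 8.17 ± 1.67 FPKM in control libraries (SD, n = 3 each). The change of -0.57 (SE 0.20) did not pass the test (limma adjusted p = 0.0616), and it was -0.31 relative to the median of all genes. It was smaller and did not pass with TMM scaling (-0.27, limma adjusted p = 0.348), with quantile normalization (-0.35, adjusted p = 0.233) and without NEC 2 (-0.39, adjusted p = 0.141). It passed without NEC 3 (-0.71, limma adjusted p = 0.0392), with sample weights (adjusted p = 0.0234) and with scaling to the total of protein-coding genes (adjusted p = 0.042).

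Cd55 is decay accelerating factor, a membrane protein that dissociates C3 convertases on host cells. It stood at 10.7, 7.32 and 6.33 FPKM in NEC 1, 2 and 3, against 10.6, 9.97 and 9.58 FPKM in control 1, 2 and 3. The groups overlapped through NEC 1, which was level with the highest control library, while NEC 2 and NEC 3 were below all control libraries. The mean was 8.11 ± 2.29 FPKM in NEC and 10.0 ± 0.501 FPKM in control libraries (SD, n = 3 each). The change of -0.30 (SE 0.18) did not pass the test (limma adjusted p = 0.207), and it was -0.045 relative to the median of all genes. Without NEC 1 it was -0.50 (limma adjusted p = 0.0093), and with TMM scaling it was 0.0081. The near copy Cd55b shares 13.3% of the 50-base stretches of Cd55, and the sum of both had a change of -0.31 that did not pass (limma adjusted p = 0.188).

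**Figure D2:**
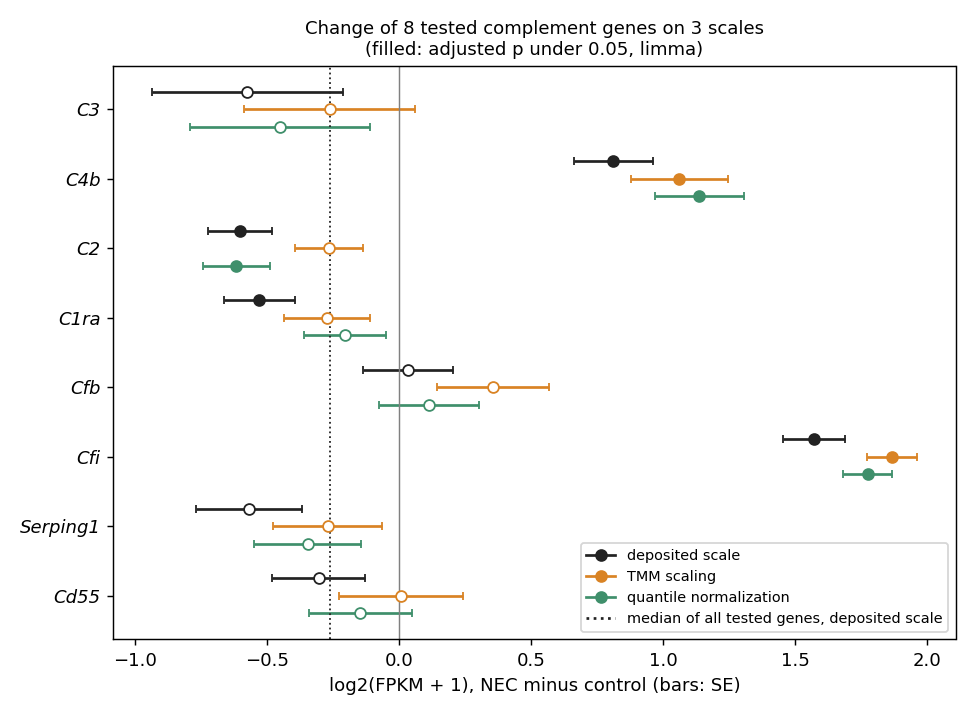
Change of the 8 tested genes, NEC minus control on log2(FPKM + 1) (x axis), on the deposited scale, with TMM scaling and with quantile normalization; bars are 1 SE and filled points have a limma adjusted p under 0.05. Cfi (1.57, 1.87 and 1.78) and C4b (0.81, 1.06 and 1.14) are filled on all 3 scales, C2 is filled on 2 and C1ra on 1.

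Across the 8 tested genes the NEC and control values did not overlap for 5: Cfi and C4b lay above, and C2, C1ra and Serping1 below. Over all tested genes, 11.8% lay wholly above and 47.3% wholly below. The ratio of Cfi to C3 was 1.99, 1.63 and 0.814 in NEC 1, 2 and 3, against 0.222, 0.218 and 0.330 in control 1, 2 and 3. The ratio of C4b to C2, the partners of the classical convertase, was 0.141, 0.127 and 0.0910 in NEC 1, 2 and 3, against 0.0394, 0.0300 and 0.0356 in control 1, 2 and 3. Neither set of ratios overlapped; both ratios are free of library scaling, were chosen after the values were seen and are given without a test.

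**Figure D3:**
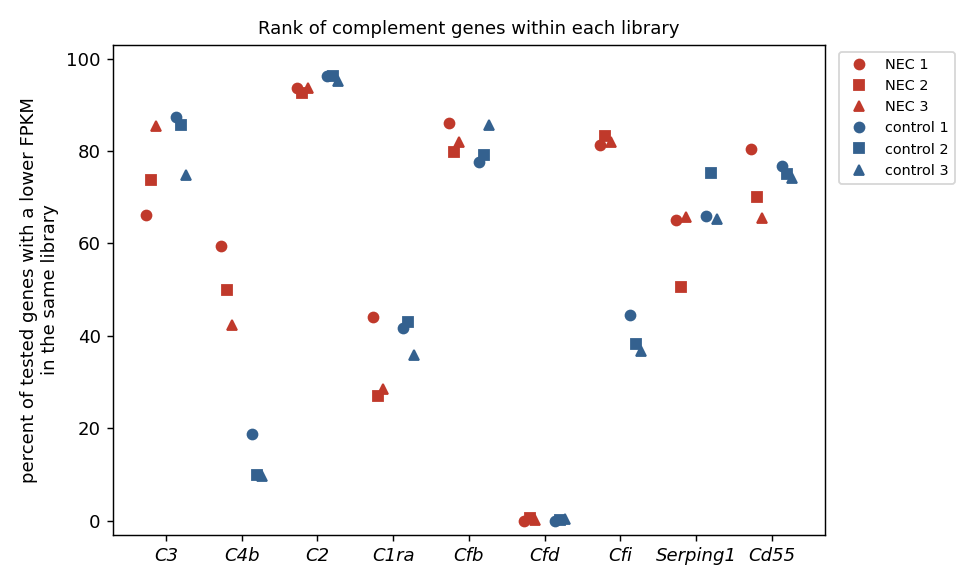
Percentile of each of the 9 genes among all tested genes of the same library (y axis, 0 to 100) in NEC libraries, left, and control libraries, right. Cfi sits at 81.3 to 83.3 in NEC and 36.7 to 44.5 in control libraries, C2 stays at 92.5 or above in all 6, and Cfd at 0.658 or below.

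The other complement genes, 49 in lists by role, are given for context. Of these, 18 could be tested, and 0 were called higher by limma and 7 lower (38.9%), with a median change of -0.44. The shares over all tested genes were 7.69% and 30.6%, with a median of -0.26. At an unadjusted p under 0.05 the counts were 1 and 11. In the classical start, 3 of 6 tested genes fell: C1qa (-0.48, limma adjusted p = 0.022) and C1qb (-0.47, adjusted p = 0.021), chains of C1q, and C1s1, the protease downstream of C1r (-0.85, adjusted p = 0.0141). C1s1 stood at 3.45, 3.47 and 4.12 FPKM in NEC 1, 2 and 3, against 8.66, 8.35 and 5.56 FPKM in control 1, 2 and 3, so no library of one group reached the other. C1qc, the gene of the other C1q chain, had a change of -0.28 and did not pass (limma adjusted p = 0.0769). Relative to the median of all genes the change of C1qc was -0.015. Of the 9 genes listed under the lectin route, 2 could be tested. The collectin Colec12 fell (-1.06, limma adjusted p = 0.0152), and Colec10, with -0.87, did not pass (adjusted p = 0.123). Properdin, Cfp, which stabilizes the alternative convertase, had a change of -0.36 and did not pass. None of the 7 genes of the terminal pathway, which builds the membrane attack complex, reached the level needed for a test.

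Among soluble regulators 1 of 9 could be tested, and that gene, Cpn1, a subunit of the carboxypeptidase that inactivates anaphylatoxins, fell (-0.87, limma adjusted p = 0.0211). Of the membrane regulators 0 of 3 tested genes passed, with 2 lower at an unadjusted p under 0.05 by limma. Cr1l, the mouse relative of complement receptor 1 also called Crry, stood at 5.84, 4.49 and 5.89 FPKM in NEC 1, 2 and 3, against 5.73, 6.42 and 5.49 FPKM in control 1, 2 and 3. Among 5 tested receptors 2 fell: Cd93 (-0.80, limma adjusted p = 0.0044), first described as a C1q receptor, and Itgb2 (-0.39, adjusted p = 0.0468), the beta chain shared by complement receptors 3 and 4. Itgam, the alpha chain of complement receptor 3, had a change of 0.38 and did not pass on the deposited scale (limma adjusted p = 0.0533), but it was called higher with TMM scaling (0.56, adjusted p = 0.0229) and with quantile normalization (0.71, adjusted p = 0.0137). With TMM scaling 4 genes stayed lower, namely Colec12, Cd93, C1s1 and Cpn1, where 14.2% of all tested genes were lower. Relative to the median of all genes on the deposited scale, the change was -0.80 for Colec12, -0.61 for Cpn1, -0.59 for C1s1, -0.54 for Cd93, -0.22 for C1qa, -0.21 for C1qb and -0.13 for Itgb2. Counting the deposited scale and the alternatives together, Cd93 was called lower in 17 of 17 settings, C1s1 in 15 of 17, C1qa and C1qb in 12 of 17, and Itgb2 in 4 of 16.

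**Figure D4:**
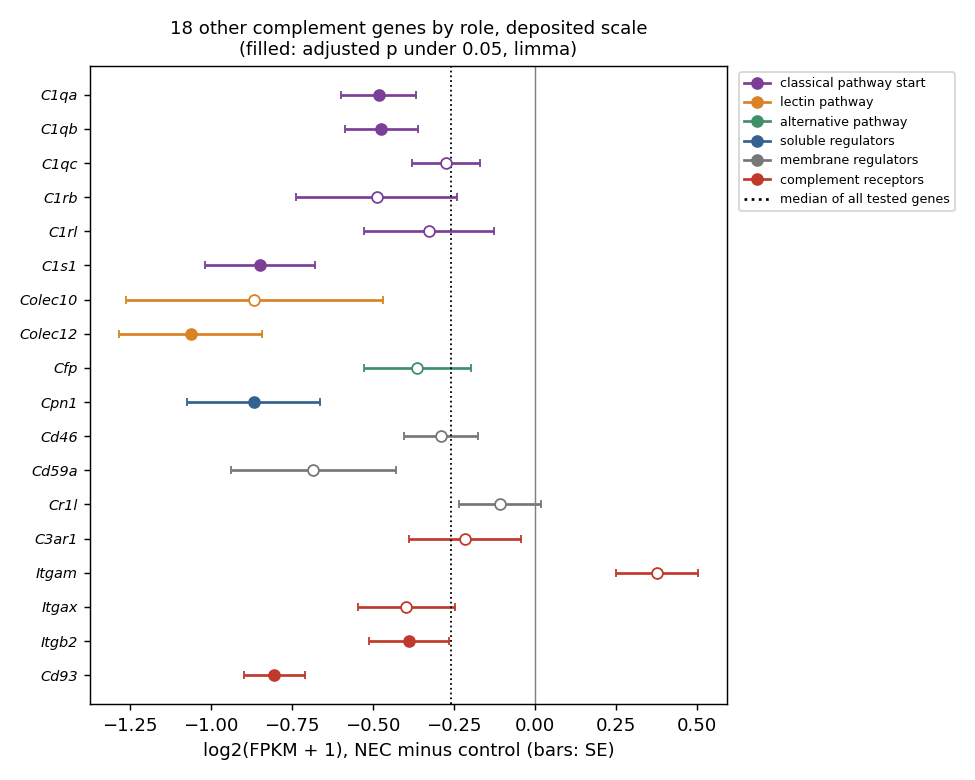
Change of the 18 tested complement genes outside the 9, NEC minus control on log2(FPKM + 1) (x axis), ordered and coloured by role; bars are 1 SE, filled points have a limma adjusted p under 0.05 and the dotted line is the median of all tested genes at -0.26. The 7 filled points all lie to the left of that line, from -1.06 for Colec12 to -0.39 for Itgb2.

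Markers of the cells that can transcribe these genes moved too, and in whole tissue fewer cells of a type and less RNA per cell cannot be told apart. The counts below stand against 30.6% of all tested genes called lower and 7.69% called higher. Of the 10 fibroblast markers, 9 were called lower, with a median change of -1.58, and their summed level was 113, 284 and 326 FPKM in NEC 1, 2 and 3, against 710, 733 and 585 FPKM in control 1, 2 and 3. This is the direction of C1ra, C1s1 and C2, and its part in their lower values was not tested. Macrophage markers, beside the fall of C1qa and C1qb, gave 1 of 6 tested genes lower, Adgre1 (-0.87, limma adjusted p = 0.0183). Mrc1 (-0.49), Cd68 (-0.34), Lyz2 (0.064), Csf1r (0.19) and Mertk (0.088) did not pass. The macrophage sums were 84.7 to 97.2 FPKM in NEC and 75.9 to 104 FPKM in control libraries, mostly from Lyz2, Csf1r and Mertk. Endothelial markers, beside Cd93, gave 4 of 7 lower, with sums of 25.8 to 35.7 FPKM in NEC and 43.6 to 47.0 FPKM in control libraries. The part of either cell type in those values was not tested.

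Cfi and C4b rose while 6 of 8 enterocyte markers rose and 0 fell, also 0 at an unadjusted p under 0.05 by limma, where 7.69% of all tested genes were called higher. The 6 were Fabp2, Lct, Apoa1, Apoa4, Alpi and Muc13, genes of enterocytes in general. The ileal genes of the list, Fabp6 (-0.13, limma adjusted p = 0.914) and Slc10a2 (-0.13, adjusted p = 0.646), did not pass. Summed levels were 11826 to 14505 FPKM in NEC and 3190 to 3984 FPKM in control libraries, mostly from the apolipoprotein gene Apoa4 (8174 to 10333 FPKM in NEC and 1678 to 2178 FPKM in control libraries). The general epithelial markers gave 1 of 8 higher and 1 lower, with sums of 1358 to 1631 FPKM in NEC and 1273 to 1376 FPKM in control libraries. The part of the epithelium in the rise of Cfi was not tested. Liver is a major source of plasma factor I and C4, and the hepatocyte gene Alb was at or below 0.103 FPKM and Ahsg at 0 in all 6 libraries. The hepatocyte list as a whole summed to 28.1 to 57.3 FPKM in NEC and 117 to 134 FPKM in control libraries, with 4 of 5 tested genes called lower. Most of that sum came from Ttr (17.8 to 42.1 FPKM in NEC and 79.3 to 97.3 FPKM in control libraries).

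Inflammatory signalling is known to induce C3 and Cfb in several cell types, and a list of NF-kB and acute phase targets had its highest summed level in NEC 1. That sum was 515, 80.4 and 240 FPKM in NEC 1, 2 and 3, against 104, 96.1 and 107 FPKM in control 1, 2 and 3. In NEC 1 most of it came from Reg3b (248.5 FPKM), Reg3g (109 FPKM) and Socs3 (53.4 FPKM), which respond to other signals as well. Nfkbia, a direct NF-kB target, stood at 22.3, 22.3 and 16.3 FPKM in NEC 1, 2 and 3, against 17.9, 16.7 and 16.0 FPKM in control 1, 2 and 3. Nfkbia had a change of 0.24 and did not pass (limma adjusted p = 0.202). Of 13 tested genes of the list 11 had their highest value in NEC 1. Limma called 1 higher, Tnfaip3 (0.56, adjusted p = 0.0403), and 1 lower, Ccl20 (-0.75, adjusted p = 0.00865). The part of this list in the member values was not tested. The complement genes had no common pattern in that library. C4b was the highest there of all 6 libraries, and Cd55 was also highest there. Cfb and C1ra were highest there among NEC libraries only, and Cfi was lowest there among NEC libraries. C2 and Serping1 lay between NEC 2 and NEC 3. C3 was lowest in NEC 1 of all 6. Without NEC 1, C4b changed by 0.71 and Cfi by 1.64, and both were still called.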

How the data were processed

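Paired-end libraries were prepared from RNA with an integrity number over 7 using a TruSeq RNA kit, per the labels' protocols. The submitters' processing notes name HISAT2, SAMtools 1.3.1, Cuffdiff and mm10. Annotation and strand setting are not given in the sources used here. No unit stands in the header of the deposited table. The authors' values were taken to be FPKM, because Cuffdiff gives FPKM and 98.6% to 98.8% of low values of single-transcript genes (below 100 fragments) were whole fragments within 0.01. Columns N 1 to N 3 were taken as NEC 1 to NEC 3. There were 0 columns of values left unused. Of 55487 identifiers, 55227 matched GENCODE mouse release M21, which gave symbols, coordinates and transcripts on the same build. No values above 0 were shared exactly between libraries.

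The test was limma 3.58.1 (R 4.3.3) on log2(FPKM + 1) with a trended prior variance, for the 15806 genes averaging 1 FPKM or more. The model held group alone, and p-values were Benjamini-Hochberg adjusted over all tested genes. The procedure was tested on simulated data. Intervals and floors cover counting error only. TMM factors were computed with trims of 30% of log ratios and 5% of levels. Alternatives were the pseudocount, the filter, the scaling, no trend, sample weights, a replicate block and leaving out each library. Figures used Python 3.11.15 and matplotlib 3.10.9. All 9 members were named, with every other complement gene called or at a mean of at least 5 FPKM in either group, and the genes of likest pattern. The rule also took the 3 highest genes of each marker list, which are given as sums except where named. Itgam, Cfp, C1qc, Gm20547, the near copies and the marker and target genes named singly were chosen after their values were seen. The members and lists were chosen with earlier results of these data known. 1 list of signalling targets is not reported here.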

Additional observations from a re-analysis of the deposited data

How the results depend on the processing

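Cfi kept its call under all 16 alternatives. With TMM scaling C2 was at -0.27 and C1ra at -0.27, neither past the threshold, and Cd55 turned to 0.0081; with quantile normalization C1ra was at -0.20 and past it no longer. The count of members called lower, 2, was then 0 and 1. Other complement genes gave 1 higher and 4 lower calls under TMM scaling and under quantile normalization, against 0 and 7; with no trend and with sample weights 1 was called higher. With sample weights 4 members were called lower, Serping1 was at -0.74 and Cd55 at -0.43, both past the threshold, and Cfb turned to -0.035. With the protein-coding total Serping1 passed at -0.63 and Cfb turned to -0.029. Summed with the overlapping gene, Cfb was at -0.31. A mean of at least 5 FPKM left 1 member higher and 1 lower, since C4b and C1ra were then not tested. The difference of Cfd, a gene at the detection limit, was set by the pseudocount, at 0.44 with 0.01 FPKM and 0.082 with 1 FPKM, and is no measure of change; without the filter it did not pass (limma adjusted p = 0.692). The cause of these changes was not tested, except where fewer genes were tested.

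Leaving out 1 library at a time, C3 ranged from -0.93 to -0.27 (past the threshold without NEC 3), C2 from -0.71 to -0.54, C4b from 0.71 to 0.92, Cfb from -0.069 to 0.20 (-0.069 without NEC 1, -0.065 without control 1 and -0.028 without control 2), Serping1 from -0.71 to -0.39, C1ra from -0.63 to -0.45 and Cd55 from -0.50 to -0.16. Members called higher numbered 1 to 2 (1 without control 2) and called lower 0 to 4 (4 without NEC 3, 1 without NEC 2 or control 3, 0 without control 1 or control 2). Other complement genes called lower numbered 1 to 6: 4 without NEC 2, 1 without control 1 and 1 without control 2. Over all genes, 508 were called higher and 1104 lower without control 1, and 481 and 1004 without control 2, against 1215 and 4829 with all libraries.

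Same-numbered libraries did not deviate together from their group means (correlations of -0.051, -0.0074 and -0.074). With so few libraries this cannot show whether the numbers pair them, and the labels do not say. With the replicate number as a block, C1ra stayed at -0.53 but missed the threshold (limma adjusted p = 0.0529), which left 1 member called lower, and 856 genes were called higher and 3230 lower over the whole table. By these deviations no library correlated best with the library of its own number in the other group. Across genes, without removing group means, every NEC library correlated best among control libraries with control 3. These correlations were 0.867, 0.916 and 0.941 for NEC 1, 2 and 3, so they do not single out a same-numbered pair. Depth limits Cfd.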

Other observations

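The genes whose pattern over the 6 libraries was most like that of C3, by the root mean square difference of centred log2(FPKM + 1) values among protein-coding tested genes, were Pln (0.125), Agr2 (0.129), Gpm6a (0.168), Moxd1 (0.169) and Gcg (0.193). Pln (0.107 to 1.75 FPKM), Gpm6a (0.276 to 2.13 FPKM) and Moxd1 (0.554 to 2.80 FPKM) were of low level. The added 1 FPKM shrinks changes at such levels, so their likeness to C3 depends on it. Agr2, a secretory protein disulfide isomerase gene of goblet cells, stood at 9.26, 16.7 and 23.5 FPKM in NEC 1, 2 and 3, against 29.3, 30.3 and 17.2 FPKM in control 1, 2 and 3. Gcg, the proglucagon gene of enteroendocrine cells, stood at 2.86, 4.59 and 9.76 FPKM in NEC 1, 2 and 3, against 13.8, 13.1 and 6.10 FPKM in control 1, 2 and 3. Both, like C3, were lowest in NEC 1 and lower in control 3 than in the other control libraries.

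The likest gene to C4b was Tnip1 (difference 0.0465), which encodes a partner of the NF-kB inhibitor A20, at 15.9, 14.5 and 11.8 FPKM in NEC 1, 2 and 3 and 8.37, 7.68 and 7.11 FPKM in control 1, 2 and 3. The likest gene to Cfi was Pappa2 (0.0368), a protease of insulin-like growth factor binding proteins, at 2.31, 3.01 and 2.79 FPKM in NEC 1, 2 and 3 and 0.405, 0.281 and 0.215 FPKM in control 1, 2 and 3. For the remaining tested members the likest genes were Zdhhc14 for C2 (0.0337), Atg4d for Cfb (0.0438), Ube2q2 for Serping1 (0.0982), Zc3h6 for C1ra (0.0504) and Cyp27a1 for Cd55 (0.0534). These are descriptions of 6 libraries, chosen among all protein-coding tested genes.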
